A study of Arabidopsis thaliana with 24 samples.

Results

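The 5 genes described here code for oxidoreductases. They had been chosen by an enzyme name and by their higher levels after flg22 treatment on these same arrays. They are AT1G26380 (FAD-linked oxidase), AT2G36690 (2-oxoglutarate dioxygenase), AT4G38540 (FAD monooxygenase), AT4G39830 (ascorbate oxidase-like) and AT1G64710 (alcohol dehydrogenase-like). Each was found on 1 probe, so they are 5 of the 181 probes with a gene name among 576 probes in all. No probe was filtered out, so all 5 were tested. Because flg22 responses chose the genes, their responses are given as values without a test. For the 5 genes the tests concern genotype, the response compared between genotypes, and time in mock. They draw on the same arrays as the choice, so they are not independent of it.

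Flagellin is the protein of the bacterial flagellum, and plants recognise its conserved stretch flg22 through a receptor kinase at the cell surface. Cells then release reactive oxygen, activate MAP kinases and alter many transcripts. FAD-linked oxidases, FAD monooxygenases, 2-oxoglutarate dioxygenases and alcohol dehydrogenases carry out oxidation steps in the synthesis and breakdown of small molecules, some of them defence compounds and hormones. Ascorbate oxidases are copper enzymes of the cell wall space. AT1G26380 belongs to the berberine bridge enzyme-like family and is known as FOX1, an oxidase in the synthesis of an indole carbonyl nitrile defence compound derived from tryptophan.

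The study compared wild-type Arabidopsis thaliana seedlings with a mutant line of the MAP kinase gene MPK11. Wild-type Col seedlings and the mpk11 insertion line SALK049352, also labelled Col, were 10 days old, had spent 48 h in fresh liquid MS medium, and received either 1 µM flg22 or water as mock. Leaf RNA was taken at 30 min or 3 h. This gave 8 groups of 3 arrays, Col mock, Col with flg22, mpk11 mock and mpk11 with flg22 at each time, and the labels number the arrays of a group as sets 1 to 3. The mutant is a single line, MPK11 was not among the named probes, and 0 of 14 leaf and 0 of 6 root marker genes were named, so neither genotype nor tissue was checked here. The labels do not say whether a set was an experiment of its own, so p-values measure the spread between these arrays, which may be technical. In RNA of leaves, more cells of a type and more RNA per cell cannot be told apart.

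Levels are the authors' deposited log values, taken as log2, for which a difference of 1 is a change by a factor of 2. The log base is not stated by the labels. Levels of different probes are not comparable, so a gene is compared only with itself across arrays. The median probe stood at 3.34 to 3.76 on the mock arrays and at 4.02 to 4.17 on the treated arrays. Centring each array on its median therefore lowered every flg22 difference, and took the median difference of all probes from 0.06 to -0.42 at 30 min and from 0.14 to -0.39 at 3 h in Col, and from 0.07 to -0.43 and from 0.20 to -0.42 in mpk11. For the responses of the 5 genes the centred values are given beside the deposited ones.

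**Figure D1:**
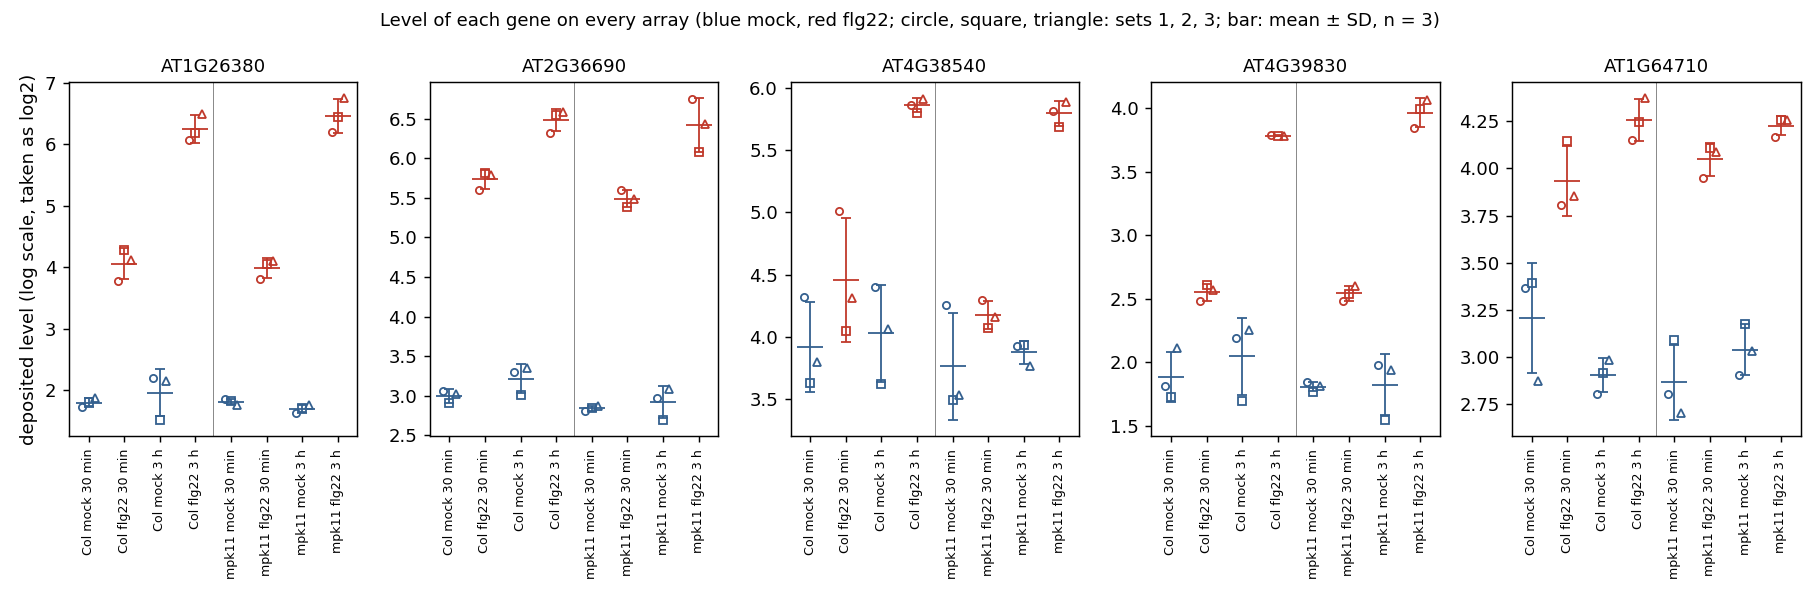
Each panel plots the deposited level of 1 gene (log scale, taken as log2, vertical axis scaled separately for each gene) on every array of the 8 groups, mock in blue and flg22 in red, with sets 1 to 3 as circle, square and triangle and bars for the mean ± SD (n = 3). Treated arrays lie above the mock arrays of the same genotype and time for every gene except AT4G38540 at 30 min, where they overlap in both genotypes.

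AT1G26380, the FAD-linked oxidase gene, had the highest 3 h responses of the 5. In Col at 30 min its mock arrays read 1.72, 1.81 and 1.86 in sets 1 to 3, and the treated arrays 3.78, 4.28 and 4.11. At 3 h the mock arrays of Col read 2.20, 1.51 and 2.14 and the treated ones 6.07, 6.18 and 6.50. The mock arrays of both times overlapped, while the treated arrays of 3 h stood clear of those of 30 min, which in turn stood clear of all mock arrays. In mpk11 the mock arrays read 1.85, 1.82 and 1.76 at 30 min and the treated arrays 3.81, 4.06 and 4.11. At 3 h they read 1.62, 1.70 and 1.75 for mock and 6.20, 6.44 and 6.75 after treatment. Here the mock arrays of 3 h lay below those of 30 min, while the treated arrays were ordered as in Col. The same 3 steps were thus seen in both genotypes, in Col at 1.80 ± 0.07 for mock at 30 min, 4.06 ± 0.26 for flg22 at 30 min and 6.25 ± 0.22 for flg22 at 3 h (log2, SD, n = 3). The response (flg22 minus mock) was 2.26 (SE 0.18) at 30 min and 4.30 at 3 h in Col, and 2.18 and 4.77 in mpk11. It ranked 30 among the 576 probes at 30 min and 6 at 3 h in Col, and 35 and 5 in mpk11. Centring gave 1.79, 3.77, 1.68 and 4.15 in the same order.

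In the RefSeq gene order of assembly TAIR10.1, the protein-coding genes that follow AT1G26380 are AT1G26390, AT1G26400, AT1G26410 and AT1G26420, which are known members of the same oxidase family. None of them was among the named probes. Probe sequences were not used here, and how much of the AT1G26380 signal comes from these relatives was not tested. RefSeq lists 1 transcript each for AT1G26380 and AT4G38540, 2 for AT2G36690, 3 for AT1G64710 and 4 for AT4G39830, and the values do not separate them.

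AT2G36690, the 2-oxoglutarate dioxygenase gene, had most of its response at the early time. In Col at 30 min its mock arrays read 3.06, 2.90 and 3.02, and its treated arrays 5.59, 5.81 and 5.79. At 3 h the readings were 3.30, 3.01 and 3.35 for mock and 6.32, 6.55 and 6.58 after treatment. Treated and mock arrays of a time were separated by wide gaps, the narrowest being 2.53 at 30 min and 2.98 at 3 h in Col. In mpk11 the mock arrays read 2.81, 2.85 and 2.87 at 30 min, and the treated arrays 5.60, 5.38 and 5.48. At 3 h they read 2.97, 2.69 and 3.09 for mock and 6.75, 6.07 and 6.44 after treatment. The treated mpk11 arrays of 3 h spread more widely than those of 30 min. The response was 2.74 (SE 0.15) at 30 min and 3.27 at 3 h in Col, and 2.65 and 3.50 in mpk11. It ranked 21 at 30 min and 11 at 3 h in Col, and 24 and 13 in mpk11. Centring gave 2.27, 2.74, 2.15 and 2.88.

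AT4G38540, the FAD monooxygenase gene, had a small response at 30 min and a clear one at 3 h. In Col at 30 min its mock arrays read 4.32, 3.63 and 3.80, and its treated arrays 5.01, 4.05 and 4.31. These groups overlapped, with set 1 the highest in both. Within each set the treated array was the higher one, by 0.69, 0.41 and 0.51 in sets 1 to 3. In mpk11 at 30 min the mock arrays read 4.26, 3.50 and 3.53, and the treated arrays 4.30, 4.07 and 4.16. They overlapped as well, and within sets the treated array was higher by 0.04, 0.57 and 0.63, so that set 1 showed almost no difference. At 3 h the Col arrays read 4.40, 3.62 and 4.06 for mock and 5.87, 5.80 and 5.91 after treatment. In mpk11 they read 3.92, 3.93 and 3.77 for mock and 5.82, 5.69 and 5.88 after treatment. At this time the groups were apart in both genotypes. The response was 0.54 (SE 0.23) at 30 min and 1.83 at 3 h in Col, and 0.41 and 1.92 in mpk11. It ranked 121 at 30 min and 57 at 3 h in Col, and 149 and 59 in mpk11. Centring took the response to 0.07 and 1.30 in Col and to -0.084 and 1.30 in mpk11, so the sign at 30 min in mpk11 turned with the scaling, as it did after quantile normalization (-0.044).

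The arrays of AT4G38540 also spread the most within groups, with a residual SD of 0.307 against a median of 0.225 over all probes. Set 1 was the highest array in 5 of the 8 groups for this gene, which 21.7% of probes matched or passed for that set. AT1G26380, AT2G36690, AT4G39830 and AT1G64710 had residual SDs of 0.216, 0.175, 0.163 and 0.161, below the median probe. For AT1G64710 set 2 was the highest array in 6 of the 8 groups (12.2% of probes matched or passed that for set 2). The part of the sets in these responses was not tested beyond the differences within sets and the fits without each set.

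**Figure D2:**
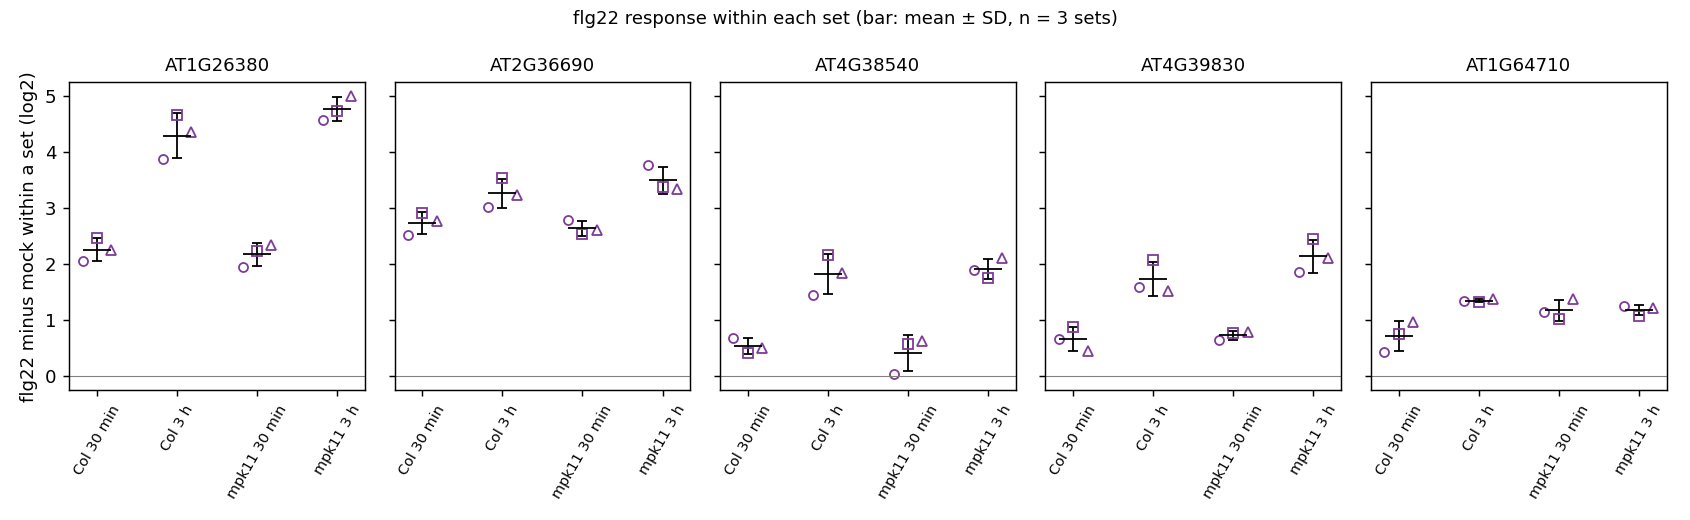
Each panel plots, for 1 gene, the difference flg22 minus mock within each set (log2, vertical axis) in Col and mpk11 at 30 min and 3 h, with sets 1 to 3 as circle, square and triangle and bars for the mean ± SD (n = 3). On the deposited scale all 60 differences lie above 0, the lowest at 0.042 for AT4G38540 in set 1 of mpk11 at 30 min. Nothing is read from this count, since responses chose the genes. Centring took the mean response of AT4G38540 in mpk11 at 30 min to -0.084.

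AT4G39830, the ascorbate oxidase-like gene, had a dim probe, and 89 probes had a lower mean over all arrays. Its mock group means ran from 1.81 to 2.05, and those of AT1G26380 were as dim, from 1.69 to 1.95. In Col at 30 min its mock arrays read 1.81, 1.73 and 2.11, and its treated arrays 2.48, 2.61 and 2.57. At 3 h they read 2.19, 1.70 and 2.26 for mock and 3.79, 3.78 and 3.78 after treatment. At 3 h sets 2 and 3 of the treated Col arrays held exactly the same deposited value, and set 1 was close to it. Why they were the same was not tested. The mock arrays spread more widely. In mpk11 the mock arrays read 1.84, 1.77 and 1.81 at 30 min, and the treated arrays 2.49, 2.54 and 2.60. At 3 h they read 1.98, 1.55 and 1.94 for mock and 3.84, 3.99 and 4.06 after treatment. Treated and mock arrays were apart at both times in both genotypes. The response was 0.67 (SE 0.15) at 30 min and 1.74 at 3 h in Col, and 0.73 and 2.14 in mpk11. It ranked 107 at 30 min and 62 at 3 h in Col, and 101 and 50 in mpk11. Centring gave 0.20, 1.21, 0.24 and 1.52.

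AT1G64710, the alcohol dehydrogenase-like gene, had the lowest 3 h responses of the 5. In Col at 30 min its mock arrays read 3.36, 3.39 and 2.87, and its treated arrays 3.81, 4.15 and 3.85. At 3 h they read 2.81, 2.92 and 2.98 for mock and 4.15, 4.24 and 4.37 after treatment. Sets 1 and 2 of the Col mock arrays at 30 min stood above all other mock arrays of this gene, while set 3 lay among them. Comparisons below that use Col mock at 30 min include these high arrays. In mpk11 the mock arrays read 2.81, 3.09 and 2.70 at 30 min, and the treated arrays 3.95, 4.11 and 4.09. At 3 h they read 2.91, 3.18 and 3.03 for mock and 4.17, 4.26 and 4.26 after treatment. Treated and mock arrays were apart in all 4 pairs. The response was 0.73 (SE 0.14) at 30 min and 1.35 at 3 h in Col, and 1.18 and 1.19 in mpk11. It ranked 100 at 30 min and 91 at 3 h in Col, and 77 and 108 in mpk11. Centring gave 0.25, 0.82, 0.69 and 0.57.

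Counted together, 4 of the 5 genes had every treated array above every mock array at 30 min in Col and 4 in mpk11, and 5 of 5 did at 3 h in both. The same held for 24.7% and 25.5% of all probes at 30 min and for 39.2% and 38.4% at 3 h. Since responses chose the genes, nothing is read from these counts. Among the treated arrays alone, 5 of 5 genes had all arrays of 3 h above those of 30 min in both genotypes, as did 27.4% of probes in Col and 25.7% in mpk11. Those are again the arrays that the choice used.

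The gain of the response from 30 min to 3 h differed in size among the 5 genes, and is given as a description. AT1G26380 gained 2.04 (SE 0.25) in Col and 2.60 in mpk11. AT4G38540 gained 1.29 (SE 0.33) and 1.51, and AT4G39830 gained 1.07 (SE 0.21) and 1.41. For these 3 genes the later response was at least 1 log2 unit above the early one in both genotypes. AT2G36690 gained 0.53 (SE 0.21) and 0.85, the least of the 5 in Col. AT1G64710 gained 0.63 (SE 0.20) in Col, while its mpk11 responses at the 2 times were 1.18 and 1.19. After centring the gains were 1.98, 1.23, 1.01, 0.47 and 0.57 in Col for AT1G26380, AT4G38540, AT4G39830, AT2G36690 and AT1G64710. In mpk11 they were 2.47, 1.38, 1.28, 0.73 and -0.12, so that the sign for AT1G64710 turned.

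**Figure D3:**
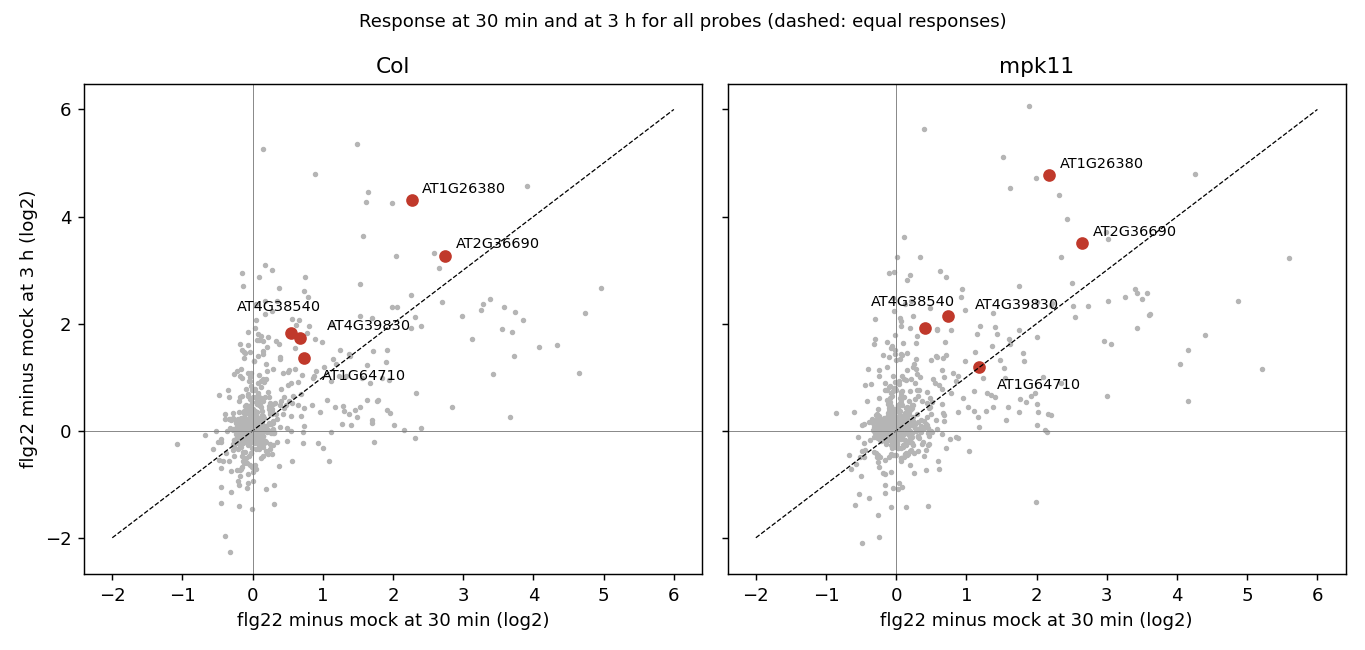
Each point is 1 probe, with its response (flg22 minus mock, log2) at 30 min on the horizontal axis and at 3 h on the vertical axis, for Col and for mpk11, with the 5 genes in red and a dashed line of equal responses. AT1G26380 lies farthest above the line of the 5, with gains of 2.04 and 2.60, and AT1G64710 lies almost on it in mpk11.

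Ordered by group mean, each gene had its 4 mock groups lowest, then the groups treated for 30 min, then those treated for 3 h. Neighbouring mock groups overlapped for all 5 genes, as did Col and mpk11 treated for 30 min. For AT4G38540 the highest mock group, Col at 3 h, also overlapped mpk11 treated for 30 min. For AT1G64710 the step from 30 min to 3 h of treatment in mpk11 was 0.18 without overlap, and in Col the lowest array of 3 h and the highest of 30 min both read 4.15. At 3 h of treatment Col and mpk11 overlapped for every gene but AT4G39830, whose lowest mpk11 array, 3.84, stood above the highest Col array, 3.79.

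Across the 8 group means, Pearson correlations between the 5 profiles ran from 0.815 (AT4G38540 and AT1G64710) to 0.986 (AT4G38540 and AT4G39830). The 8 points are shared by all genes and include the flg22 contrast that chose the 5. The named probes most like AT1G26380 were the chitinase gene AT4G01700 (r = 0.992 over 8 group means), the peroxidase gene AT5G64120 (0.990) and AT3G09010 (0.989). Those most like AT4G39830 were AT5G64120 (0.998), the transcription factor gene WRKY29 (0.997) and the chitinase gene AT2G43620 (0.996). AT4G38540 was closest to AT2G43620 (0.990), WRKY29 (0.989) and AT1G65500 (0.986). AT2G36690 was closest to AT2G18690 (0.987), AT2G42360 (0.986), which codes for a RING-type protein, and AT3G54150 (0.984). AT1G64710 was closest to AT2G42360 (0.982), AT2G36690 (0.979) and AT2G18690 (0.968).

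Differences between mpk11 and Col were then tested for the 5 genes. None passed in any of the 4 conditions, and 0.0% of all probes did (limma, threshold 0.05 after Benjamini-Hochberg adjustment over all probes). By unadjusted p under 0.05, limma had 50 probes in mock and 24 with flg22 at 30 min, and 6 and 8 at 3 h. In mock at 30 min AT1G64710 averaged 2.87 in mpk11 and 3.21 in Col, a difference of -0.34 (95% interval -0.64 to -0.04, limma adjusted p = 0.493), with mpk11 lower in 3 of 3 sets. The other 4 genes differed there by -0.15 to 0.02, and AT2G36690 and AT4G38540 were also lower in 3 of 3 sets. With flg22 at 30 min the differences ran from -0.28 for AT4G38540 to 0.11 for AT1G64710. In mock at 3 h AT2G36690 differed by -0.30 (95% interval -0.61 to 0.02, limma adjusted p = 0.987), again lower in 3 of 3 sets. There AT1G26380 differed by -0.26 and AT4G39830 by -0.22, the latter also lower in 3 of 3 sets. AT1G64710 differed there by 0.14 and was higher in 3 of 3. With flg22 at 3 h AT1G26380 differed by 0.21 (95% interval -0.15 to 0.58, limma adjusted p = 0.998) and AT4G39830 by 0.18, both higher in mpk11 in 3 of 3 sets. AT4G38540 differed there by -0.06 and was lower in 3 of 3. The share of all probes with the same sign in 3 of 3 sets was not counted.

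By overlap of the arrays, AT2G36690 in mock at 30 min was the 1 of 5 genes with all mpk11 arrays below all Col arrays (8.16% of probes), and AT4G39830 with flg22 at 3 h the 1 of 5 with all above (2.78%). In the remaining directions 0 of 5 genes were apart, against 1.74% of probes above in mock at 30 min, 2.08% above and 8.85% below with flg22 at 30 min, 2.43% above and 6.08% below in mock at 3 h, and 1.91% below with flg22 at 3 h.

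Averaged over the 4 conditions, AT2G36690 had a genotype difference of -0.19 (SE 0.08, 95% interval -0.35 to -0.03), which did not pass (limma adjusted p = 0.421, unadjusted p = 0.0197). AT4G38540 differed by -0.16 (95% interval -0.41 to 0.08). Both had the lower mean in mpk11 in 4 of 4 conditions. How many of all probes did so was not counted, and the median difference of all probes was -0.03 here. The differences of AT1G26380, AT4G39830 and AT1G64710 were -0.03, -0.03 and -0.03. In limma 49 probes had an unadjusted p under 0.05 here and 0 passed.

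**Figure D4:**
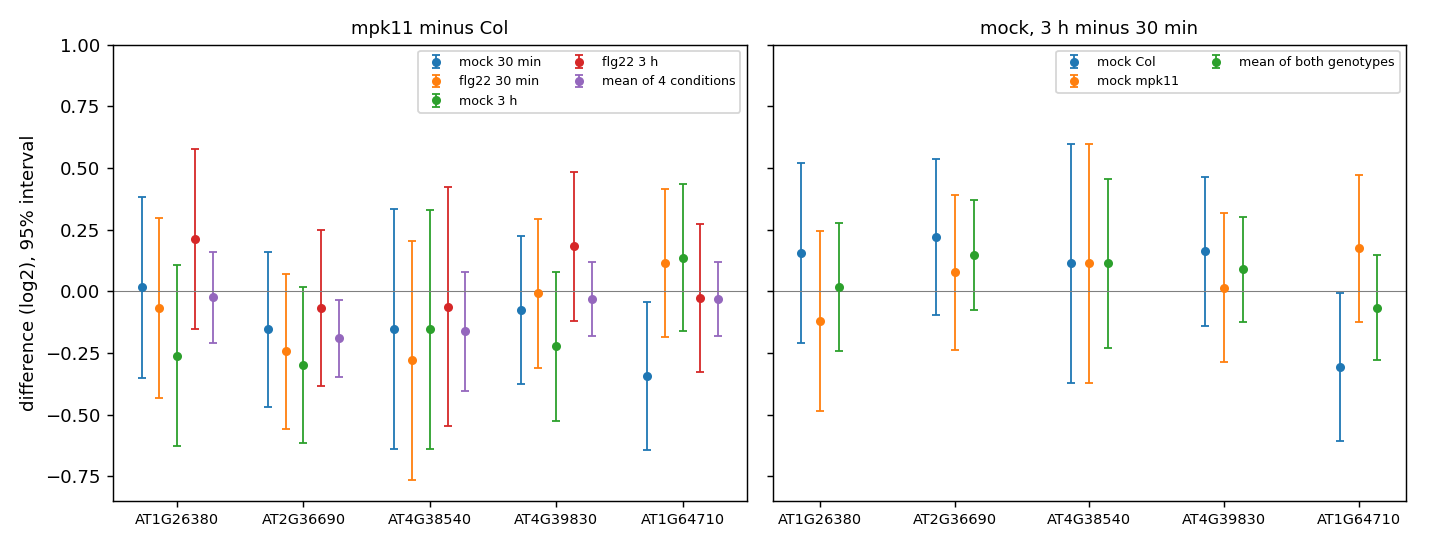
Points with 95% intervals (limma) show, for each gene, mpk11 minus Col in 4 conditions and their mean on the left, and 3 h minus 30 min in mock for each genotype and their mean on the right (log2). The intervals of AT1G64710 in mock at 30 min and over time in Col, and that of AT2G36690 over the 4 conditions, lie below 0, and none passed after adjustment over all probes.

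The size of the response was compared between the genotypes as an interaction, which is built from the responses that the choice used. At 30 min AT1G64710 had a response larger in mpk11 by 0.46 (95% interval 0.03 to 0.88, limma adjusted p = 0.999, unadjusted p = 0.0356), and the other 4 genes differed by -0.13 to 0.07. At 3 h AT1G26380 had a difference of 0.47 (95% interval -0.04 to 0.99, limma adjusted p = 0.995) and AT4G39830 one of 0.41 (95% interval -0.02 to 0.83). AT2G36690, AT4G38540 and AT1G64710 differed by 0.23, 0.09 and -0.16. No probe passed at either time, and limma gave 7 and 8 probes with an unadjusted p under 0.05. For AT1G64710 the change of the genotype difference in response from 30 min to 3 h, a comparison chosen after its values were seen, was -0.62 (95% interval -1.22 to -0.02, limma adjusted p = 0.997).

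The mock arrays show how the 5 genes differed between 30 min and 3 h without flg22. Over both genotypes, 3 h minus 30 min was 0.02 for AT1G26380, 0.15 for AT2G36690, 0.11 for AT4G38540, 0.09 for AT4G39830 and -0.07 for AT1G64710. None of the 5 passed, while 20.5% of all probes did (limma, 3.99% higher and 16.5% lower). AT2G36690 had the highest difference (95% interval -0.07 to 0.37, limma adjusted p = 0.432). It passed after quantile normalization, at 0.31 (limma adjusted p = 0.0245). Taken by genotype, 0 of 5 genes passed, against 10.9% of probes in Col (1.91% higher, 9.03% lower) and 11.8% in mpk11 (2.6% higher, 9.2% lower). AT1G64710 differed by -0.31 in Col (95% interval -0.61 to -0.01, limma adjusted p = 0.208) and by 0.17 in mpk11. Without array 3 of Col mock at 30 min the Col difference was -0.47 and passed (limma adjusted p = 0.0443). That fit kept only the high arrays of this group. For AT1G26380 in mpk11 all mock arrays of 3 h lay below those of 30 min, as for 20.0% of probes, with a difference of -0.12. No other gene of the 5 was apart over time in mock, against 3.65% of probes above and 18.6% below in Col and 6.77% above in mpk11.

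Indole compounds come from the tryptophan pathway, and 1 of 20 listed genes of tryptophan and indole metabolism was among the named probes. This was AT2G04400, indole-3-glycerol phosphate synthase, an enzyme of tryptophan synthesis. At 30 min it differed from mock by 0.10 in Col and -0.04 in mpk11 (limma adjusted p = 0.889 and 0.945). At 3 h it rose by 2.88 (SE 0.16, limma adjusted p = 8.19e-13) in Col and by 2.96 in mpk11, and by 2.35 and 2.34 after centring. AT1G26380 stood 2.26 above mock at 30 min in Col, a time at which AT2G04400 did not pass. These genes were not compared with each other by a test, and 1 of 20 listed genes does not stand for the pathway.

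Other oxidoreductase genes were found by the names of the reference table (4 genes) and, after the probe names had been seen, by enzyme class (7 more). The list may leave out further oxidoreductase genes among the named probes, so its counts are not those of a whole enzyme class. Of these 11 genes, 2 rose and 0 fell at 30 min in each genotype (limma, against 20.3% and 0.174% of all probes in Col and 20.5% and 1.56% in mpk11). At 3 h 2 rose and 1 fell in Col, and 2 rose and 2 fell in mpk11 (31.9% and 6.42% of probes in Col, 34.4% and 6.42% in mpk11). Their median difference was 0.06 and 0.13 in Col and -0.07 and 0.20 in mpk11 at 30 min and 3 h, beside 0.06, 0.14, 0.07 and 0.20 over all probes. This split depends on the scaling. After centring 1 rose and 5 fell at 30 min in each genotype, where 15.1% of all probes rose and 43.9% fell in Col, and 15.1% and 46.2% in mpk11. At 3 h 1 rose and 6 fell in Col (21.4% and 44.4% of all probes), and 2 rose and 7 fell in mpk11 (21.2% and 48.8%). After quantile normalization 2 rose and 5 fell at 30 min in each genotype (16.0% and 27.3% of all probes in Col, 16.8% and 29.5% in mpk11). At 3 h 1 rose and 6 fell in Col (22.6% and 31.9%), and 2 rose and 5 fell in mpk11 (21.9% and 33.7%).

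**Figure D5:**
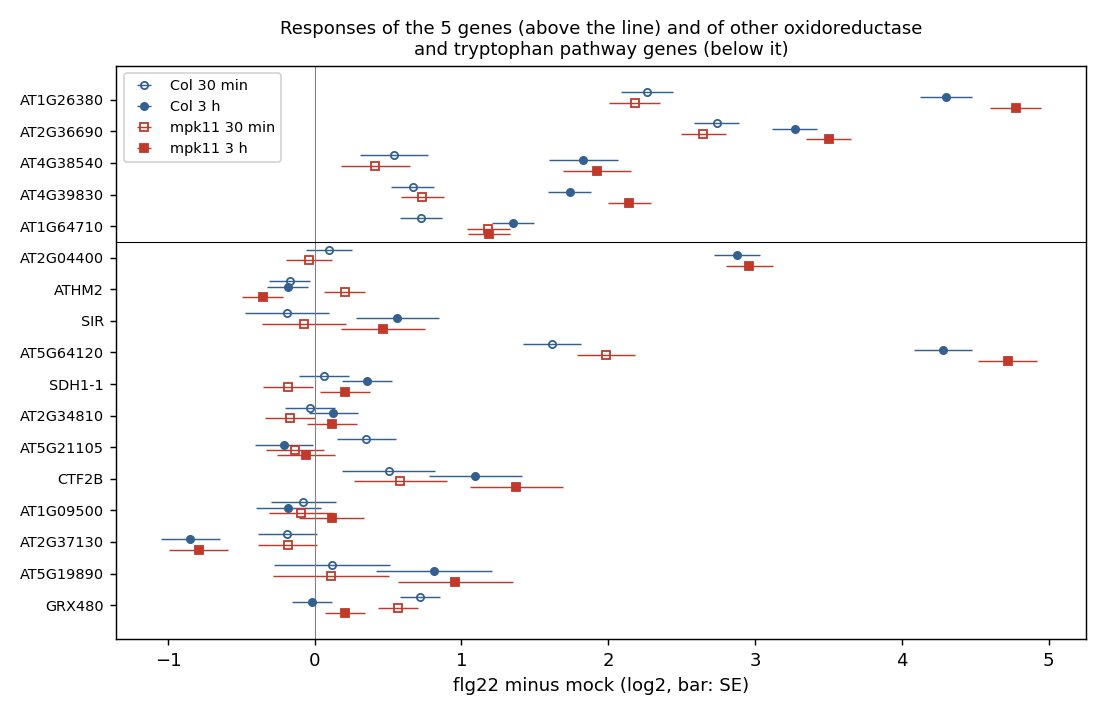
Responses (flg22 minus mock, log2, horizontal axis, with the SE as a bar) of the 5 genes above the line and of AT2G04400 and the 11 listed oxidoreductase genes below it, in Col and mpk11 at 30 min and 3 h. AT5G64120 reaches 4.28 and 4.72 at 3 h, close to AT1G26380, and AT2G34810, AT5G21105 and AT1G09500 lie between -0.21 and 0.35.

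Among the 11 genes AT5G64120, which codes for a cell wall peroxidase, moved most. It rose by 1.61 at 30 min and by 4.28 (SE 0.20, limma adjusted p = 3.48e-14) at 3 h in Col, and by 1.99 and 4.72 in mpk11. The glutaredoxin gene GRX480, known from salicylic acid signalling, rose at 30 min by 0.72 in Col and 0.57 in mpk11, and its 3 h differences were -0.02 and 0.20. Centring ended both of its calls (limma adjusted p = 0.117 and 0.662), and in mpk11 so did leaving out set 1 (0.0599) or set 3 (0.0865). CTF2B, which like AT4G38540 codes for a FAD-dependent monooxygenase, rose at 3 h by 1.09 (SE 0.32, limma adjusted p = 0.00760) in Col and by 1.37 in mpk11, and centring took these to 0.56 and 0.75. In Col that call was lost after centring (0.0824), after quantile normalization (0.0838) and without array 2 of Col mock at 3 h (0.0547).

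The peroxidase gene AT2G37130 fell by 0.85 in Col and by 0.79 in mpk11 at 3 h, and by 1.38 and 1.41 after centring (limma adjusted p = 2.55e-05 and 1.74e-05). In Col the call was lost without set 3 (limma adjusted p = 0.108). ATHM2, a plastid thioredoxin gene, fell by 0.35 at 3 h in mpk11 (limma adjusted p = 0.0451), a call lost under 10 of 15 alternatives, among them leaving out any 1 set (0.0855, 0.313 and 0.12 for sets 1 to 3). Its difference was -0.98 after centring and -1.09 after quantile normalization, where it passed (limma adjusted p = 5.19e-05 and 3.98e-06). AT2G34810, an oxidase of the family of AT1G26380, differed at 3 h by 0.13 in Col and 0.12 in mpk11. AT5G21105, which like AT4G39830 belongs to the ascorbate oxidases, differed by -0.21 and -0.06 at 3 h and by 0.35 and -0.14 at 30 min. AT1G09500, a gene named as alcohol dehydrogenase-like, differed by -0.18 and 0.12 at 3 h. Its name alone does not place it in the family of AT1G64710. AT2G34810, AT5G21105 and AT1G09500 did not pass at either time on the deposited scale. The peroxidase gene AT5G19890 differed by 0.81 and 0.96 at 3 h, sulfite reductase (SIR) by 0.56 and 0.47, and succinate dehydrogenase (SDH1-1) by 0.35 and 0.20, also without passing. The reference gene EF1A (AT5G60390) differed by -0.57 and -0.34 in Col and by -0.26 and -0.14 in mpk11 at 30 min and 3 h, and did not pass.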

How the data were processed

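The authors' deposited values span 0.450 to 11.4 and were taken as log2. Scanner, background correction, normalization and log base are not stated by the labels. RNA carried 1 dye, and a second dye on the spots marked bad ones for removal, per the labels. The table held 576 probes and 0 missing values. The probe table names 1 gene for 181 probes, several for 0 and none for 395, and 180 matched RefSeq (TAIR10.1). Coordinates are left out because no build is named for the probes.

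All arrays entered 1 model of 8 group means in limma 3.58.1 (R 4.3.3), with Benjamini-Hochberg adjustment over all probes and a threshold of 0.05. The fit was also run on simulated data with independent arrays. Those data held no set effect, so they cannot show how arrays that deviate together by set alter the tests. The number of arrays limits the precision. The members and lists were chosen with earlier results of these data known. Named genes are the 5 members, every measured gene of the lists and, per member, the 3 named probes with the highest correlation of group means. Same-numbered arrays deviated together from their group means, with a median correlation of 0.336. Of the 10 pairs of groups used for responses, genotype and mock time, all but the genotypes with flg22 at 3 h (lowest -0.010) and the times in Col mock (lowest -0.025) had every correlation over 0.1, so the set numbers pair the arrays there. The set number entered as a replicate block in an alternative fit.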

Additional observations from a re-analysis of the deposited data

Results flagged for a closer look

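The genotype difference of 2 genes had opposite signs in all sets of 2 conditions. They were found by looking over all pairs of conditions for each of the 5 genes. How many of all probes did the same was not counted, so nothing is read from this number. AT1G64710 was lower in mpk11 in 3 of 3 sets in mock at 30 min (-0.34) and higher in 3 of 3 in mock at 3 h (0.14), so the first less the second is -0.48. Tested after its values were seen, as 3 h less 30 min, this change was 0.48 (95% interval 0.06 to 0.90) and did not pass (limma adjusted p = 0.915, unadjusted p = 0.0281). AT4G39830 was lower in mpk11 in 3 of 3 sets in mock at 3 h (-0.22) and higher in 3 of 3 with flg22 at 3 h (0.18), so the first less the second is -0.41. The interaction that tests it did not pass (limma adjusted p = 0.995, unadjusted p = 0.0612).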

How the results depend on the processing

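Every comparison was refitted after centring or quantile normalization, on the 432 brightest probes (4 of the 5 genes), with a trended and robust prior, with a replicate block for the set, on the compared groups alone, and without each array or set. Of 1188 recomputed genotype, interaction and mock time differences of the 5 genes, 3 passed. They were AT2G36690 over time in mock after quantile normalization (0.31 over both genotypes, and 0.43 with a limma adjusted p of 0.0415 in Col) and AT1G64710 in Col mock without array 3 at 30 min. Another 77 changed sign without passing. Of 296 recomputed responses 2 changed sign, AT4G38540 at 30 min in mpk11 with median centring (-0.084) and with quantile normalization (-0.044), while 35 moved by more than 1 SD. Of 208 recomputed gains of the response from 30 min to 3 h 9 changed sign, each that of AT1G64710 in mpk11 (-0.12 to -0.0089).

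Over time in mock 23 probes were higher and 95 lower. Centring gave 40 and 57, quantile normalization 47 and 71, and the replicate block 30 and 119. The replicate block changed no call of the 5 genes, and with it 0 probes passed between genotypes. Leaving out arrays or sets gave 10 to 25 higher and 48 to 97 lower, both lowest without set 3. Probes lower in mpk11 numbered 0 to 1 with flg22 at 30 min and over the 4 conditions, the 1 without array 3 of Col with flg22 at 30 min. The cause was not tested. Promoter motifs and protein comparisons were planned but not run, since no sequences were used here.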
